A study of Rattus norvegicus with 67 samples.

Results

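Sperm histone retention was compared between 5 lean males and 17 males with no disease of the F3 generation atrazine lineage. The 22 animals were taken from 67 listed animals, of which 66 have counts, by the animal numbers of the exposure table. The lean group was M28, M42, M54, M56 and M66. The no disease group was M20, M22, M24, M25, M31, M39, M40, M43, M45, M46, M47, M53, M55, M62, M65, M67 and M69. All 22 were outbred Sprague Dawley male rats, and sperm was collected at 1 year of age. They share 1 ancestral exposure: gestating F0 generation females received atrazine, a herbicide, at 25 mg/kg body weight daily on embryonic days 8 to 14, and the F3 generation itself received none. Lean was the only disease or pathology scored in the 5 lean males, and it was assigned from adipocyte size, body mass index and abdominal adiposity set against the control lineage. The question is whether sperm histone retention differs with the lean phenotype inside the exposed lineage. The same windows were then examined in 10 multiple disease males whose tag includes lean (M21, M27, M37, M48, M49, M52, M57, M58, M61 and M63). These were also set against 15 atrazine lineage males with a disease tag that does not include lean, and M19, whose tag names no disease, was left out. Retention levels were taken from 16 F3 generation males of the control lineage, whose F0 generation ancestors received the vehicle dimethyl sulfoxide (DMSO) and no atrazine. The study scored some of these males for a disease, among them M17 for kidney disease and lean.

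During the final stages of spermatogenesis most histones are replaced by protamines, small basic proteins that pack the DNA tightly. A minor part of the genome keeps its nucleosomes, and the retained histones have been studied as possible carriers of information to the embryo. Histone H3 is a core protein of every nucleosome, so chromatin immunoprecipitation with an antibody to H3 followed by sequencing (ChIP-seq) counts DNA from retained nucleosomes. A window with more reads in 1 group is therefore read as greater retention there relative to the rest of the genome, and not as a change in the total amount of retained histone. A differential histone retention region, or DHR, is a stretch of windows that differ between groups.

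The reads of each animal were counted by the authors in windows of 1000 bp on the rat genome Rnor 6.0. A lean library held 26487836 to 70692367 counts (median 33830006), and a no disease library held 22211333 to 80885350 (median 57704749). The 10 multiple disease animals with lean had between 20151792 and 90569227 counts. Each count is given for 1 animal, although the methods of the study also speak of sperm pools. The labels name a pan H3 antibody, while the methods name that antibody or 1 for a trimethylated H3. The treatment tag of M66, of no disease animals M62, M65, M67 and M69, of M57, M58, M61 and M63, in the multiple disease group, and of M60 and M64, among the disease animals without lean, reads DMSO, the vehicle, against their title and lineage tag, which were followed here. The treatment tag of the control lineage males reads Atrazine, again against their lineage tag. ChIP-seq of H3 gives no expression markers of sperm. The median count of an X chromosome window over that of an autosomal window was 0.333 to 0.5 in lean and 0.32 to 0.533 in no disease animals, a ratio that male somatic cells would give as well.

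Some libraries stood apart from the others of their own group, and the results below are given with and without them. In sums over 2790 bins of 1 Mb, each expressed as a log2 difference from the no disease mean, lean animals M28 and M42 had an SD over bins of 0.441 and 0.344. Lean animals M54, M56 and M66 had 0.0746, 0.0454 and 0.132. The 17 no disease animals had 0.0339 to 0.298, with a median of 0.0704. M28 and M42 thus departed more from the no disease mean along the genome than every no disease animal, and the no disease animal nearest to them was M22. The bin profiles of M28 and M42 were alike, with a Pearson r of 0.913 over the 2790 bins, and so were those of M28 and M22, with an r of 0.981. M66 had the opposite profile, with an r of -0.724 with M28 and 0.893 with no disease animal M62. These correlations describe neighbouring bins of the same libraries, which are not independent of each other, and no test was run on them. Base composition was not examined. Of the multiple disease animals, M48 stood apart with an SD over bins of 0.836, and its profile had an r of 0.973 with that of M28. M48 had 20151792 counts, a median of 3 reads per window and 19.5% of windows at 0. M28 had 26487836 counts, a median of 8 reads and 7.58% of windows at 0. No disease animal M67, with 22211333 counts, a median of 7 reads and 7.14% at 0, had an SD over bins of 0.0701. Whether depth bears on these profiles was not tested.

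Among 2396026 windows that reached an average of 10 reads, 966 differed between lean and no disease animals at p below 0.0001 in edgeR's quasi-likelihood test, 0.0403% of those tested. Of these, 415 windows (0.0173%) were higher in lean and 551 (0.023%) were lower, so that 42.96% were higher. With the smallest Benjamini-Hochberg adjusted p at 0.239, 0 windows passed an adjusted p of 0.05, and 272668 (11.4%) had an unadjusted p below 0.05. DESeq2's Wald test called 1698 windows at p below 0.0001, of which 2 passed an adjusted p of 0.05, and edgeR's exact test called 2876, of which 716 passed. Windows higher in lean had a median log2 difference of 1.01 (0.63 to 1.55), and windows lower in lean had a median of -1.34 (-3.78 to -0.73). Among called windows the largest differences were thus decreases. A fixed p threshold calls only larger differences where counts are low and the SE is large, so the directions cannot be compared on size. The windows gave 959 DHRs, 413 higher and 546 lower in lean, with a median length of 3000 bp and a longest of 17000 bp. Only 5 DHRs held 2 or more windows with p below 0.0001, and the other 954 rest on 1 window each.

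The number of called windows depended on which animals were included. It was 376 without M28, of which 33 were higher in lean, and 326 without M42, of which 217 were higher. It was 2257 without M54, 1356 without M56 and 3782 without M66, of which 676 passed an adjusted p of 0.05. Leaving out no disease animal M22, whose profile was like that of M28, gave 4041 windows, of which 2780 (68.79%) were higher in lean and 1841 passed an adjusted p of 0.05, the 16 windows of smallest p in the 2 directions among them. The other no disease animals were not left out singly. Without both M28 and M42, 121 windows were called, 22 higher and 99 lower. With the log2 ratio of reads in retention levels 1 to 5 over those in levels 6 to 10 as a covariate, 231 windows were called and 25.54% were higher in lean, against 42.96% without the covariate. Of the 966 windows, 258 (26.7%) still had p below 0.0001 without M28, 24 of the 415 higher and 234 of the 551 lower in lean. Without M42, 186 (19.3%) did, 141 higher and 45 lower. The number was 550 without M54, 497 without M56, 682 without M66 and 953 without M22. All windows that could still be tested kept their direction in these fits. Most of the same animals had chosen the windows, so this is a description only. The median log2 difference of the 415 windows was 0.78 without M28 and 1.005 without M42, and that of the 551 windows was -1.30 and -1.13. Without both M28 and M42, 24 of the 966 (2.48%) remained below 0.0001, while 641 had p below 0.01. The median log2 differences were 0.68 and -1.04, and all 960 windows that could be tested kept their direction. The windows had been chosen with M54, M56, M66 and the same no disease animals, so kept direction and size were largely set in advance. The calls by direction for these choices are shown in the plot of windows called.

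**Figure D1:**
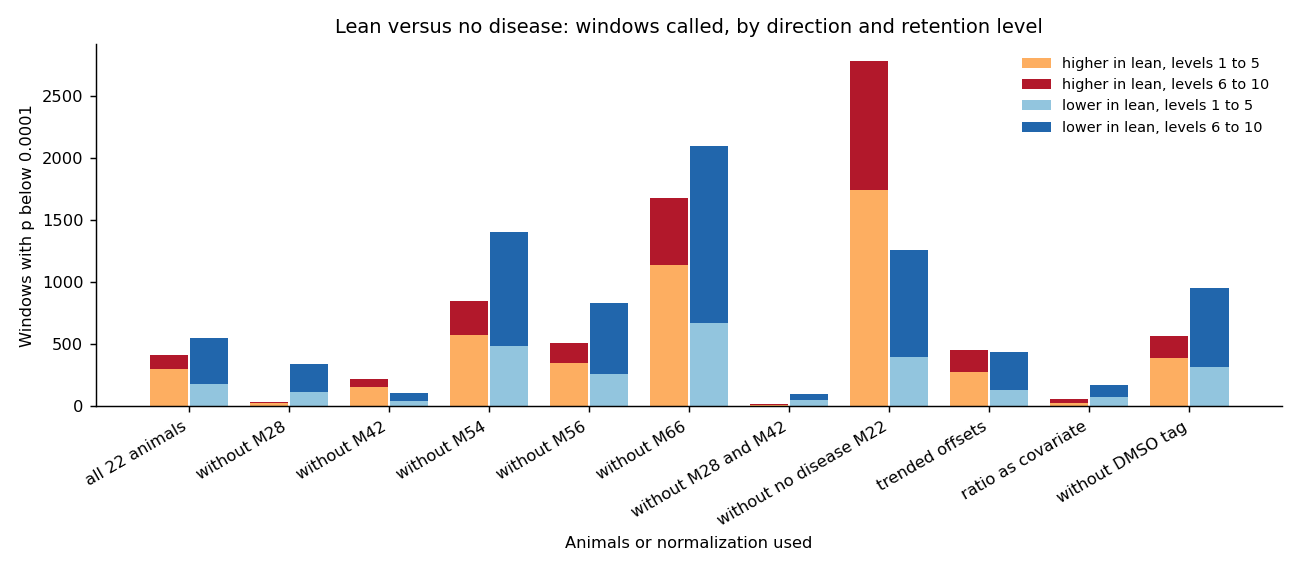
Number of windows with p below 0.0001 between lean and no disease animals (vertical axis) for different sets of animals and normalizations (horizontal axis), with 1 bar for windows higher and 1 for windows lower in lean, each divided into retention levels 1 to 5 and 6 to 10. All 22 animals gave 415 higher and 551 lower windows, removal of M66 or of no disease animal M22 raised both bars, and removal of M28 left 33 higher windows.

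Retention level was defined in animals outside the comparison. No input library was among the counts used. A level is therefore a density of H3 reads, and the part of background in it was not tested. The tested windows were ranked by their mean RPM, or reads per 1000000 reads, in the 16 control lineage males and divided into 10 parts of equal size, from level 1, the lowest, to level 10, and the top 1 percent was also taken alone. The levels lie close together, since the median control lineage RPM was 0.227 in level 1, 0.319 in level 2, 0.444 in level 9 and 0.531 in level 10. The lean against no disease difference changed sign along this scale. The median log2 difference of all tested windows was 0.06 in level 1, 0.13 in level 2, 0.10 in level 3, 0.06 in level 4 and 0.03 in level 5. It was 0.001 in level 6, -0.03 in level 7, -0.05 in level 8, -0.08 in level 9, -0.09 in level 10 and -0.12 in the top 1 percent. With all 5 lean animals, windows with few H3 reads in control lineage sperm were thus on balance higher in lean, and windows with more were lower. Without M28 the medians were 0.01 in level 1, 0.04 in level 2, -0.05 in level 9 and -0.06 in level 10, and without M28 and M42 those of levels 1, 2 and 9 turned over, to -0.03, -0.02 and 0.002.

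The called windows had the same order. Of 415 windows higher in lean, 298 were in levels 1 to 5 and 117 in levels 6 to 10. Of 551 windows lower in lean, 182 were in levels 1 to 5 and 369 in levels 6 to 10. Level 2 held the most windows higher in lean, with 80 against 33 lower (0.0334% and 0.0138% of its windows). Level 7 held the most windows lower in lean, with 80 against 22 higher (0.0334% and 0.00918%). Level 1 was nearly even, with 37 higher and 36 lower. In the top 1 percent, 9 windows were higher and 10 lower, 0.0793% of its 23961 windows.

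The order in the calls was kept, with fewer windows, when M28 or M42 alone was left out. When both were left out, it turned over among windows higher in lean. Without M28, 23 windows higher in lean were in levels 1 to 5 and 10 in levels 6 to 10, while 114 and 224 were lower. Without M42, 157 and 60 were higher, and 42 and 65 were lower. Without both, 7 and 15 were higher and 47 and 52 were lower. With the ratio of the levels as a covariate, 26 and 33 were higher and 77 and 95 were lower. Without M66, 1135 and 541 were higher, and 668 and 1428 were lower. Without M22, 1743 and 1037 were higher, and 400 and 857 were lower.

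The share of all tested reads that falls in a level was then compared with the animal as the replicate. In level 2, lean animals M28, M42, M54, M56 and M66 had 11.8%, 10.0%, 8.96%, 8.73% and 8.09% of their reads, a mean of 9.53% ± 1.47 (SD, n = 5), against 8.68% ± 0.54 (SD, n = 17) in no disease animals. M28 lay above all 17, and M66 lay in the lower part of their range. The difference in level 2 was 0.12 on the log2 scale, with an exact two-sided permutation p of 0.0516 over 26334 assignments. In level 9 the same animals had 7.87%, 8.88%, 9.82%, 9.95% and 10.7%, a mean of 9.44% ± 1.09 (SD, n = 5), against 10.1% ± 0.42 (SD, n = 17). The order of the 5 lean animals was reversed from that in level 2. The level 9 difference was -0.10 (exact permutation p = 0.0515). With levels taken from the 15 disease animals without lean, the differences were 0.06 in level 2 and -0.04 in level 9, and with medians of animals they were 0.08 and -0.04. Level 5 differed by 0.02 (exact permutation p = 0.0143) and level 10 by -0.08 (exact permutation p = 0.0275). Adjusted over the 11 levels, 0 differences passed 0.05, and the smallest adjusted p was 0.0895. Without M28 the differences were 0.04 in level 2 (exact permutation p = 0.432), 0.02 in level 5 (exact permutation p = 0.066), -0.03 in level 9 (exact permutation p = 0.412) and -0.04 in level 10 (exact permutation p = 0.207), with 0 levels past the adjusted p. Without M66, 9 of 11 levels passed, without all animals tagged DMSO 9 passed, and without M22 7 passed, in each case with M28 and M42 still in the lean group.

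**Figure D2:**
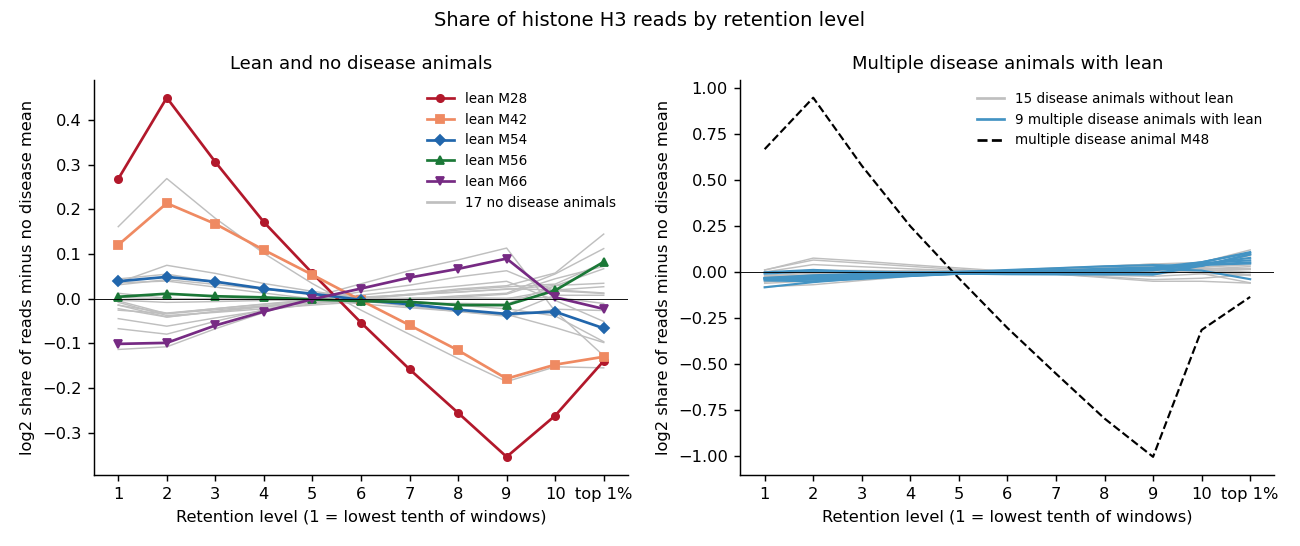
Share of reads by retention level, as log2 share minus the no disease mean (vertical axis), for each animal across levels 1 to 10 and the top 1 percent (horizontal axis). M28 and M42 run from high in the low levels to low in the high levels, M54 and M56 stay near 0, M66 runs the opposite way, and in the right panel M48 lies far outside the other 9 multiple disease animals with lean.

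The levels were also summarised in 1 value per animal, the log2 ratio of reads in levels 1 to 5 over reads in levels 6 to 10, a summary chosen after the shares were seen. It was 0.06 in M28, -0.17 in M42, -0.36 in M54, -0.40 in M56 and -0.50 in M66. The 17 no disease animals ran from -0.51 (M62) to -0.14 (M22), around a median of -0.44. M28 alone lay above all 17, and 4 of 5 lean animals lay above the no disease median. In percent of reads, levels 1 to 5 held 51.1% in M28, 47.05% in M42, 43.8% in M54, 43.04% in M56 and 41.4% in M66, against 41.2% to 47.5% in no disease animals. The lean minus no disease difference in the log2 ratio was 0.14 ± 0.10 (SE), with an exact permutation p of 0.044. It was 0.05 without M28 (exact permutation p = 0.36), 0.11 without M42 (exact permutation p = 0.106), 0.15 without M22 (exact permutation p = 0.0211) and -0.01 without M28 and M42.

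By chromosome, called windows were split unevenly by direction. Chromosome 10 had 36 windows higher and 5 lower in lean, chromosome 12 had 22 higher and 5 lower, and chromosome 1 had 54 higher and 37 lower. Chromosome 2 had 18 higher and 76 lower, chromosome 14 had 15 and 42, chromosome 11 had 11 and 31, chromosome 15 had 13 and 35, and chromosome 16 had 9 and 27. Over the whole set 0.0173% of windows were called higher and 0.023% lower, against 0.0345% and 0.00479% on chromosome 10, 0.0482% and 0.011% on chromosome 12, and 0.00758% and 0.032% on chromosome 2. In both directions together, chromosomes 10 (0.0392%), 2 (0.0396%) and 1 (0.0365%) were close to the 0.0403% of the whole set, while chromosomes 20 (0.0595%), 12 (0.0592%), 14 (0.0553%) and 11 (0.051%) were above it. Without M28, 0 windows were higher and 1 lower on chromosome 10, 1 and 0 on chromosome 12 and 0 and 45 on chromosome 2. Without M42 the counts were 17 and 0, 9 and 2, and 6 and 15, and without both they were 0 and 1, 0 and 2, and 4 and 10. Over all windows, 0.00137% were called higher and 0.0142% lower without M28. These shares were 0.00906% and 0.00455% without M42, and 0.000911% and 0.0041% without both. At the shares without M28 and without both, a count of 0 or 1 higher window on chromosomes 10 and 12 says little. Chromosome 17 had the lowest share of called windows among the autosomes, with 7 higher and 7 lower (0.0172%). The X chromosome had 6 higher and 12 lower, and the Y chromosome had 0 of 1647 tested windows. Only 27.98% of X and 49.74% of Y windows passed the read filter, against 86.58% to 92.76% on the autosomes. The median log2 difference of all windows was 0.23 on chromosome 12, 0.14 on chromosome 10, 0.10 on chromosome 19 and 0.07 on chromosome 20. It was -0.07 on chromosome 2, -0.05 on chromosome 11 and -0.05 on the X chromosome.

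In shares of reads per animal, chromosome 12 held 2.74% in M28, 2.32% in M42, 1.95% in M54, 1.89% in M56 and 1.58% in M66. The means were 2.09% ± 0.44 (SD, n = 5) and 1.82% ± 0.17 (SD, n = 17), a log2 difference of 0.18 (exact permutation p = 0.0529). Only M28 lay above all no disease animals there, and M66 lay at the low side. Chromosome 10 held 5.18%, 4.84%, 4.25%, 4.11% and 3.77% in the same order, a log2 difference of 0.12 (exact permutation p = 0.048), with M28 and M42 above all 17. Chromosome 2 held 8.65%, 9.15%, 9.98%, 10.1% and 10.7%, a log2 difference of -0.08 (exact permutation p = 0.0417), with M28 and M42 below all 17. Chromosome 15 had the smallest p, with a log2 difference of -0.05 (exact permutation p = 0.0175). Adjusted over 22 chromosomes, 0 passed 0.05 and the smallest adjusted p was 0.194. Without M28 the differences were 0.08 on chromosome 12 (exact permutation p = 0.348), 0.06 on chromosome 10 (exact permutation p = 0.298), -0.04 on chromosome 2 (exact permutation p = 0.295) and -0.02 on chromosome 15 (exact permutation p = 0.105), with 0 chromosomes past the adjusted p. Without M66, 17 of 22 chromosomes passed, without the animals tagged DMSO 11 passed, and without M22 0 passed.

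**Figure D3:**
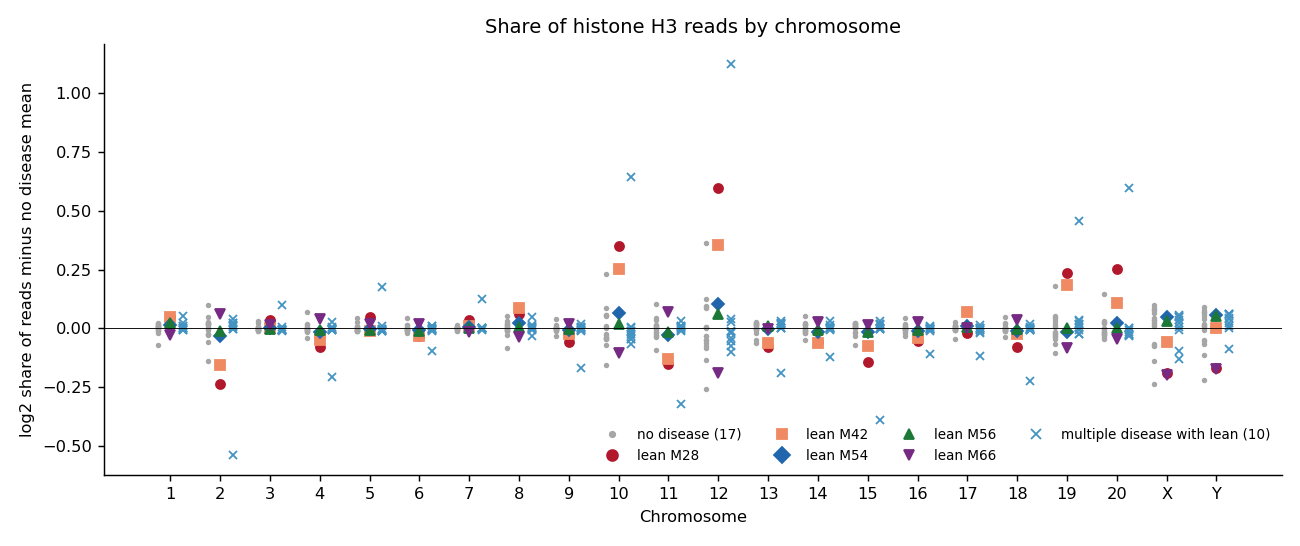
Share of reads by chromosome, as log2 share minus the no disease mean (vertical axis), for chromosomes 1 to 20, X and Y (horizontal axis), with 1 point per animal. On chromosomes 10, 12, 19 and 20 M28 and M42 lie high and on chromosome 2 low, with M66 on the other side of 0, and the farthest cross on most chromosomes is multiple disease animal M48.

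Chromosomes differed in how their windows spread over the retention levels. Levels 1 to 5 held 82.1% of the tested windows of chromosome 12, 72.0% of chromosome 10 and 35.6% of chromosome 2. Across the 20 autosomes the percentage of windows in levels 1 to 5 and the median log2 difference had a Pearson r of 0.954 and a Spearman rho of 0.86, as a description of chromosomes measured in the same libraries. The X chromosome had 79.3% of its windows in levels 1 to 5 and a median of -0.05, and it was left out of that correlation because it is present in 1 copy. In levels 6 to 10 alone, chromosome 12 had a median of 0.12 and chromosome 11 had -0.09. On each of the 20 autosomes the median was higher in levels 1 to 5 than in levels 6 to 10. Without M28 and M42 the chromosome medians, X and Y included, were all between -0.04 and -0.003.

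In bins of 1 Mb, 0 of 2790 bins passed an adjusted p of 0.05 in edgeR's quasi-likelihood test, with the smallest adjusted p at 0.0881, and DESeq2 also called 0. An unadjusted p below 0.05 was found in 1493 bins (53.5%). That number was 29 without M28, 150 without M42 and 4 without both. Without M66, 2096 bins (75.1%) passed an adjusted p of 0.05, and without M22 1744 (62.5%) did, the named bins below among them. The increase with the smallest p was at chr4:146000001-147000000, with a log2 difference of 0.32 ± 0.09 (SE). The 5 lean animals had 0.91 (M28), 0.33 (M42), 0.07 (M54), 0.22 (M56) and -0.01 (M66) over the no disease median there, against -0.09 to 0.35 in the 17, so that only M28 lay outside. The difference there was 0.13 without M28 and 0.06 without M28 and M42. The next was at chrX:36000001-37000000, with 0.22 ± 0.06 (SE), where M28 (0.65) and M56 (0.28) lay above the no disease range, which ended at 0.18. The difference was 0.09 without M28. This bin held 276 tested windows, and without a filter on windows its difference was 0.10. The decrease with the smallest p was at chrX:131000001-132000000, with -0.09 ± 0.03 (SE), and the next at chr10:111000001-112000000, with -0.12 ± 0.04 (SE). M28 and M42 lay below all 17 in both of these bins. The bin at chrX:131000001-132000000 held 184 tested windows, and its difference was -0.21 without a filter on windows. The other named bins, chr16:61000001-62000000, chr4:126000001-127000000 and chr7:64000001-65000000 among increases and chrX:109000001-110000000, chr16:1-1000000 and chr8:42000001-43000000 among decreases, had log2 differences of 0.07 to 0.16 and -0.14 to -0.10. Without M28 these were 0.05 to 0.09 and -0.12 to -0.07, and without M42 0.04 to 0.12 and -0.12 to -0.09.

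Single windows showed retention at the level of the animal. The window with the smallest p among increases was chr1:92140001-92141000, in level 2. It had 0.855 RPM in M28, 0.872 in M42, 0.805 in M54, 0.717 in M56 and 0.579 in M66, from 19 to 55 reads, against 0.135 to 0.558 RPM in the no disease animals, with a median of 0.347. All 5 lean animals were above all 17, as was true of 239 windows (0.00997%) in the whole set tested. Its log2 difference was 1.201 ± 0.22 (SE, p = 5.21e-07), and it was 1.06 without M28 and M42 (p = 0.000134).

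A window of chromosome 8, chr8:116462001-116463000, was listed at Sema3f, a secreted semaphorin that guides axons and vessels. It had 0.932 RPM in M28, 1.10 in M42, 0.63 in M54, 0.754 in M56 and 0.854 in M66, against 0.174 to 0.644 in no disease animals, with a median of 0.409. All lean animals except M54 were above the 17. The log2 difference was 1.14 ± 0.22 (SE, p = 1.74e-06), and it was 0.90 without M28 and M42 (p = 0.000846).

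The window at chr1:102845001-102846000 was listed at Saa4, a serum amyloid A protein of lipoproteins, and Gtf2h1, a subunit of the transcription factor TFIIH. It had 0.932, 0.767, 0.571, 0.641 and 0.457 RPM in M28, M42, M54, M56 and M66, from 15 to 44 reads, and between 0.083 and 0.42 RPM in no disease animals. The groups did not overlap. Windows at chr10:16119001-16120000 and chr8:61465001-61466000, with no listed gene, also had all 5 lean animals above all 17. Their lean means were 0.70 ± 0.22 and 0.67 ± 0.11 RPM (SD, n = 5), against 0.34 ± 0.06 and 0.31 ± 0.10 RPM (SD, n = 17). At chr5:170125001-170126000 and chr18:2711001-2712000, 4 of 5 lean animals were above the range, and the lowest lean value was 0.396 RPM (M66) and 0.615 RPM (M54). Without M28 the log2 difference was 0.87 at both chr10:16119001-16120000 and chr18:2711001-2712000. The p of edgeR's quasi-likelihood test was 0.000199 and 0.00024 there, above the threshold of 0.0001.

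The called decreases were larger on the log2 scale, with fewer reads behind them in the lean animals. At chr13:22730001-22731000, in level 5, M28 had 0.078 RPM, M42 0.035, M54 0.146, M56 0.113 and M66 0.122, from 2, 2, 10, 3 and 4 reads. The no disease animals had 0.215 to 0.621 RPM, with a median of 0.348, so that all 5 lean animals were below all 17, as in 374 windows (0.0156%) of the whole set. The log2 difference was -1.87 ± 0.34 (SE, p = 6.62e-07), and it was -1.49 without M28 and M42 (p = 0.000211). At chr7:55962001-55963000, in level 8, the lean animals had 0.117, 0.07, 0.103, 0.075 and 0.305 RPM in the order M28 to M66, against 0.216 to 0.788. M66 was within the no disease range and the other lean animals were below it. Its log2 difference was -1.81 ± 0.33 (SE, p = 5.41e-07) and -1.56 without M28 and M42 (p = 7.46e-05), still under the threshold.

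At chr6:120978001-120979000, the lean animals had 0.117, 0.105, 0.161, 0.075 and 0.091 RPM, from 2 to 11 reads, against 0.216 to 0.621, and the groups did not overlap. The log2 difference was -1.69 ± 0.32 (SE, p = 1.51e-06) and -1.65 without M28 and M42 (p = 6.14e-05). At chr16:131001-132000, in level 9 and listed at the predicted gene AABR07024442.1, they had 0.194, 0.297, 0.205, 0.189 and 0.274 RPM against 0.46 to 0.703. The log2 difference was -1.26 ± 0.24 (SE, p = 1.57e-06) and -1.38 without M28 and M42 (p = 1.43e-05). Groups did not overlap at chr2:66657001-66658000 and chr15:96238001-96239000, where lean means were 0.13 ± 0.09 and 0.12 ± 0.09 RPM (SD, n = 5) against 0.47 ± 0.15 and 0.43 ± 0.09 RPM (SD, n = 17). At chr8:11105001-11106000 and at chr16:52547001-52548000, listed at a U6 small nuclear RNA gene of the spliceosome, 3 of 5 lean animals were below the range.

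**Figure D4:**
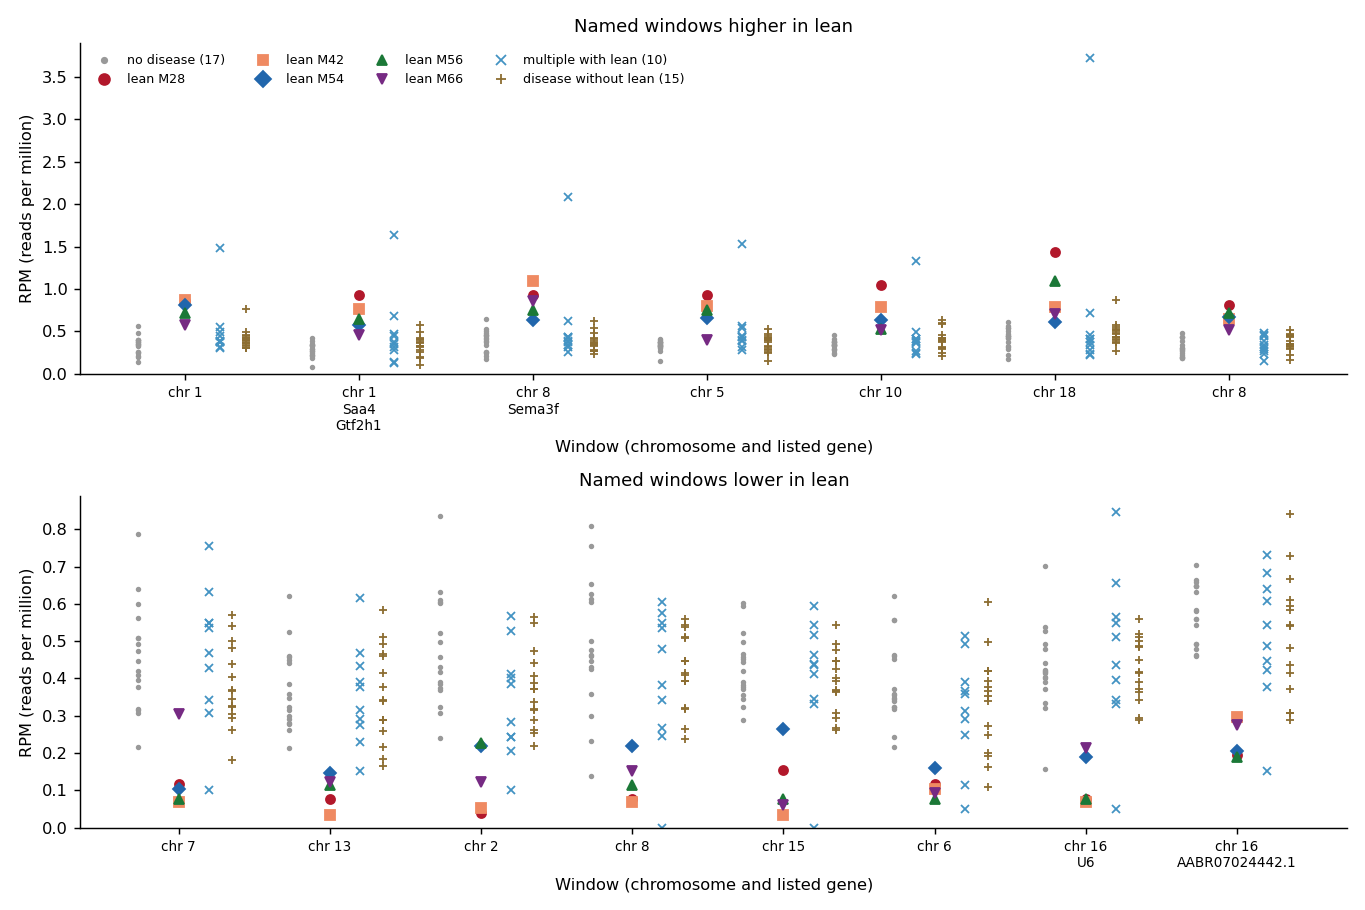
RPM in each animal (vertical axis) for 7 windows higher in lean (top) and 8 lower in lean (bottom), with the chromosome and any listed gene under each (horizontal axis). Lean animals lie above or below most of the 17 no disease animals, and the far cross in several of the upper windows is multiple disease animal M48.

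Of the 16 windows of smallest p, 8 in each direction, 13 stayed below p of 0.0001 without M28 and 16 without each of the other lean animals, while 3 did so without both M28 and M42. The 3 were those of chromosomes 7, 6 and 16 (131001) described above. More widely, 19 windows, 3 higher and 16 lower, had p below 0.0001 in 9 fits: with all 22 animals, without each lean animal in turn, with the ratio of the levels as a covariate, with offsets that follow window abundance, and without animals tagged DMSO. The 3 increases were at chr1:92140001, Saa4 and Gtf2h1, and Sema3f. The decreases included windows listed at Tmc1, a channel protein of inner ear hair cells (-1.62 ± 0.31, SE), Wls, a carrier of Wnt proteins to the cell surface (-1.51 ± 0.29), and R3hdm1 (-1.42 ± 0.29). These windows were picked by their values in these animals, and 0 of them passed the adjusted p of 0.05 with all 22 animals.

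The single lean animals contributed unequally to the called windows. Of the 415 windows higher in lean, M28 was above all 17 no disease animals in 97.1%, M42 in 77.8%, M56 in 58.3%, M54 in 42.9% and M66 in 33.7%. Over all tested windows these animals were above the 17 in 16.97%, 10.49%, 9.31%, 3.31% and 8.38%. Of the 551 windows lower in lean, M42 was below all 17 in 92.9%, M28 in 87.1%, M56 in 66.1%, M54 in 53.4% and M66 in 52.8%. Over all tested windows M42, M28, M56, M54 and M66 were below the 17 in 14.0%, 22.67%, 10.55%, 2.95% and 8.87%. All 5 lean animals were above the range together in 32 of the 415 windows, and below it in 93 of the 551. The choice of windows by their p sets these percentages, so they are a description only. In windows lower in lean the median count was 3 in M28, 5 in M42, 15 in M54, 5 in M56 and 7 in M66, against medians of 10 to 31 in the 17 animals, and counts this low limit each value.

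Genes could be attached to part of the DHRs. The files hold no annotation, and gene names were taken from the gene column of the study's own list of lean DHRs, which was made on these animals with a stricter p and is no independent evidence of a gene or direction. Of 959 DHRs, 432 overlapped a listed region, 147 higher and 285 lower in lean, and 188 had a listed gene, 102 higher and 86 lower. By the functional category given there, Metabolism had 32 DHRs (19 higher and 13 lower), Transcription 17 (12 and 5), Signaling 16 (12 and 4), Transport 14 (10 and 4) and Receptor 13 (6 and 7). Cytoskeleton had 6 DHRs, all higher in lean, Protease 4, all higher, and the category Unknown 7, all lower. These counts stand beside 102 higher and 86 lower among the DHRs with a listed gene, and no test of a category was run. Among lists of genes of energy balance (28), of imprinted genes (16) and of sperm nuclear proteins and spermatogenesis (14), 0 were named in the gene column, which holds 277 gene names in all, so that a count of 0 in lists this short says nothing about these genes. Of the Hox clusters, Hoxd1, a homeobox factor of body patterning, was named, with a log2 difference of -1.45 ± 0.33 (SE, p = 3.75e-05) and all 5 lean animals below the 17.

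The genes that follow were picked after their values were seen, as examples of each category. Among transporters, Kcnk12, a potassium channel subunit, had 0.798 RPM in lean against 0.367 in no disease animals, a log2 difference of 1.10 ± 0.22 (SE). Slc5a1, the sodium-coupled glucose transporter of the intestine, had 1.03 ± 0.21, and Slc4a8, a sodium-driven bicarbonate exchanger, had 1.11 ± 0.23. In both, 4 of 5 lean animals were above the 17. Among transcription factors, Ebf1, which acts in B cells and adipocytes, had 0.98 ± 0.21 with all 5 lean animals above the range. Gli2, a mediator of hedgehog signals, had a pair of DHRs, at chr13:34914001-34918000 (1.09 ± 0.24) and chr13:35017001-35023000 (0.93 ± 0.21). Sfmbt2, a Polycomb group protein, had 1.08 ± 0.23.

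Receptors and matrix genes were found in both directions. Itgb5, an integrin subunit, had 0.832 RPM in lean against 0.408, a log2 difference of 1.01 ± 0.21 (SE), with all 5 lean animals above the range. Npr1, a receptor for natriuretic peptides, had 1.17 ± 0.25, and Plxna1, a receptor for semaphorins, had 1.09 ± 0.23. Emid1, a matrix protein, was at 1 of the 5 DHRs with 2 or more called windows, with 1.15 ± 0.23. Col4a2, a chain of basement membrane collagen, had the largest increase of these examples, 1.30 ± 0.27, with 2 of 5 lean animals above the range.

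Among decreases, Vom1r87 and Vom1r24, receptors of the vomeronasal organ, had -1.73 ± 0.34 and -1.43 ± 0.29 (SE). These belong to a large gene family, and whether reads were placed at the wrong copy was not tested. Sycp2, a part of the synaptonemal complex that joins chromosomes in meiosis, had 0.148 RPM in lean against 0.428, a log2 difference of -1.43 ± 0.30, with all 5 lean animals below the range. Pde5a, which breaks down cyclic GMP, had -1.46 ± 0.31, and Gria4, a glutamate receptor subunit, had -1.35 ± 0.29, again with all 5 below. Mef2a, a transcription factor of muscle and nerve, had -1.26 ± 0.27, and Scn1a, a sodium channel of neurons, had -1.42 ± 0.31, with 4 below. A pair of windows of level 10 kept more reads, at Tek, the receptor for angiopoietins (0.704 against 1.43 RPM, -0.94 ± 0.20), and at Adam5, a member of a family that includes sperm surface proteins (0.644 against 1.22 RPM, -0.83 ± 0.18).

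Mitochondrial DNA carries no histones, and its reads were looked at as background. The 17 mitochondrial windows had a median log2 difference of -0.58, and 14 of them had p below 0.05, all lower in lean, with 0 at p below 0.0001. Scaled to 1000000 reads in all windows, mitochondrial reads were 37.98 in M28, 119.6, 123.7, 124.7 and 131.8 in the other lean animals, and 56.98 to 437.4 in the 17, with a median of 146.5. M28 was the only lean animal below all 17. The log2 difference was -0.54 (exact permutation p = 0.199), and it was -0.20 without M28 (exact permutation p = 0.635).

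The multiple disease animals with lean provided other animals for the same measures. Against the same 17 no disease animals, 38 windows (0.00158%) had p below 0.0001 in edgeR's quasi-likelihood test, 15 higher and 23 lower. Against the 15 disease animals without lean, a comparison that shares no animal with the lean comparison, 34 windows (0.00139%) did, 10 higher and 24 lower. An adjusted p of 0.05 was passed by 0 windows in both, and unadjusted p below 0.05 was found in 4.35% and 4.70% of windows. EdgeR's exact test called 446 and 1002 windows, with 0 past the adjusted p. Without M48 the counts were 259 and 265. In the latter, 14 windows passed an adjusted p of 0.05, among them 3 between chr2:137158001 and chr2:137162000, where M57 was highest, and 5 of mitochondrial DNA, where M21 was highest. M21 was also highest in 5 others, on chromosomes 5, 8 and 20, and so in 10 of the 14. M57 has the contradicting treatment tag.

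The windows called in lean animals were followed in the comparison that shares no animal with it. Of windows higher in lean, 336 of 413 that could be tested (81.4%) were higher in the multiple disease animals with lean than in disease animals without lean, where 55.4% of all tested windows were. Of windows lower in lean, 245 of 546 (44.9%) were lower, where 44.6% of all tested windows were. The increases were thus shared more often than the background, and the decreases were at it. Without M48 these numbers were 127 of 411 (30.9%) against 50.0%, and 198 of 548 (36.1%) against 50.0%. Windows higher in lean with the same direction at p below 0.05 numbered 73 (17.7%, against 3.15% of all windows), and 4 without M48 (0.973% against 2.58%). Their median log2 difference was 0.27 with M48 and -0.09 without it. The shared direction therefore rested on M48, a library in which 19.5% of all windows had 0 reads.

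The same was seen in the sums of reads. Summed over the 415 windows higher in lean and expressed as log2 over the no disease mean, the lean animals had 0.50 to 1.70 and the no disease animals -0.19 to 0.61, where M22 (0.61) lay above M66 (0.50) although the windows were chosen on these animals. M48 had 2.29, above every lean animal, and the other 9 multiple disease animals with lean had -0.11 to 0.14. The 15 disease animals without lean had -0.01 to 0.30. Over the 551 windows lower in lean, lean animals had -2.06 to -0.96, M48 had -2.20, the other 9 had -0.15 to 0.09, and the disease animals without lean had -0.51 to 0.02. Control lineage male M17, which the study scored for kidney disease and lean, had -1.04, inside the lean range. Over the 415 windows higher in lean M17 had 0.48, below the lean range and inside that of the no disease animals. Apart from M48, each multiple disease animal with lean thus lay outside the lean range in both sums and within the range of animals without disease. In the named window at Sema3f the 10 had a median of 0.406 RPM, with 2.09 as the highest, and in that at chr13:22730001-22731000 they had a median of 0.347 RPM, next to 0.348 in no disease animals.

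**Figure D5:**
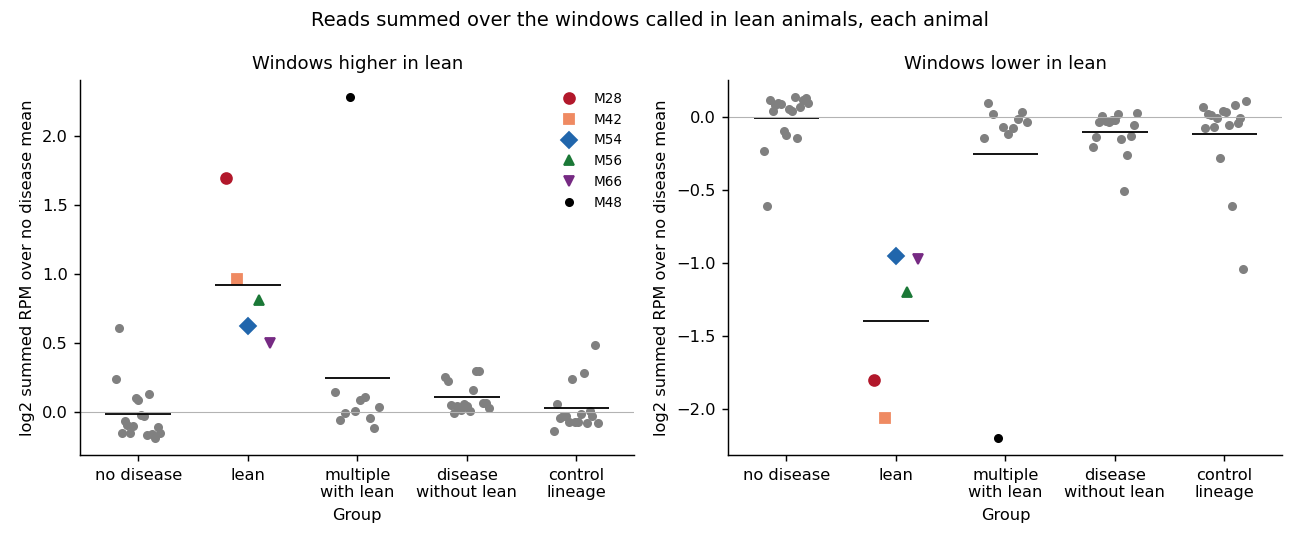
Reads summed over the 415 windows higher in lean (left) and the 551 windows lower in lean (right), as log2 summed RPM over the no disease mean (vertical axis), for each animal by group (horizontal axis), with a line at each group mean. The windows were chosen on the lean and no disease animals, the groups overlap on the left where no disease animal M22 (0.61) lies above lean animal M66 (0.50), M48 lies beyond them at 2.29 and -2.20, and the other 9 multiple disease animals with lean lie near 0.

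Shares of reads by retention level and chromosome were also compared in these animals. The log2 ratio of levels 1 to 5 over levels 6 to 10 differed by 0.07 from the no disease animals (permutation p = 0.59) and by 0.08 from the disease animals without lean (permutation p = 0.499), with M48 at 0.62. Without M48 the differences were -0.03 (permutation p = 0.258) and -0.02 (permutation p = 0.115). By level, 1 of 11 shares passed an adjusted p of 0.05 against the disease animals without lean, level 5, with a log2 difference of -0.01 (permutation adjusted p = 0.0358). Level 5 had been higher in lean than in no disease animals. Without M48, level 10 passed instead, with a difference of 0.03 (permutation adjusted p = 0.0303), a direction opposite to that of level 10 in lean animals. By chromosome, 0 of 22 shares passed an adjusted p of 0.05 against either group, with or without M48. Against no disease animals, chromosome 12 differed by 0.09 on the log2 scale with M48 (permutation p = 0.478) and by -0.03 without it (permutation p = 0.558), and chromosome 10 by 0.04 (permutation p = 0.608) and -0.03 (permutation p = 0.385).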

How the data were processed

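The counts analysed here are whole numbers of reads per window of 1000 bp, deposited without normalization for 66 animals and 2782040 windows. The authors checked reads with FastQC, trimmed them with Trimmomatic, mapped them to Rnor 6.0 with Bowtie2, sorted them with SAMtools and counted them with MEDIPS. Read extension and the treatment of duplicates are not given in the sources used here. Another 298 columns of per-animal values and the columns of the authors' own comparisons (fold changes and p-values) were not used.

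Windows that averaged 10 reads or more over the 22 animals were tested in R 4.3.3 with edgeR 4.0.16 (TMM factors, trended dispersion from 200000 random windows, quasi-likelihood test) and limma 3.58.1. DESeq2 1.42.0 was an alternative. A DHR was grown from each window called at p below 0.0001 as long as another window of p below 0.1 lay within 1000 bp. Adjusted p-values are Benjamini-Hochberg over all windows tested, all bins, or the levels or chromosomes of a comparison. Shares of reads were compared by exact two-sided permutation (26334 assignments) or, for the multiple disease animals, 100000 resamples, with SciPy 1.17.1 and NumPy 2.4.6 under Python 3.11.15. The RPM of a window is per 1000000 reads in the tested windows, without TMM factors. The SE of the log2 difference of a window or bin is that difference divided by the square root of its F statistic. It is thus no separate estimate, and at a like p it follows the size of the difference. The SE of the log2 ratio of levels was taken from the spread of animals. A bin of 1 Mb needed at least 100 tested windows.

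Named windows are the 8 of smallest p in each direction and the 4 of smallest p in each direction with all 5 lean animals outside the range of the 17, and named bins are the 5 of smallest p in each direction. Of the named windows, 1 is not reported here. The groups, lists and tests were chosen with earlier results of these data known. On simulated counts for this comparison, with 100000 windows, 52% of 2-fold and 95% of 3-fold changes were called, with 10 unchanged windows called and 0 in the wrong direction. The simulated animals shared a single profile along the genome and a single dispersion, and differed only in library size. Profiles such as those of M28, M42 and M22 were not simulated, so these rates do not carry over to the real counts. No genome of this build was used, so no sequence is given, and of 277 gene names 212 matched RefSeq symbols. Replicates are single animals, whose litters are not given, and no lane or date is in the labels, so no batch could be examined. RPM values and shares of reads are given without an interval for counting error, and read numbers stand beside some of the RPM values.

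Alternatives, 1 at a time, were edgeR's exact test, DESeq2, its size factors, offsets that follow window abundance, no filter, a mean of at least 20 reads, each lean animal left out, the animals tagged DMSO left out, that tag as a covariate, all 19 no disease animals, bins of 100 kb, medians or plain shares, and levels from the 15 disease animals without lean. Chosen after the data were seen were the fits without M28 and M42, without M22, with the ratio of levels as a covariate, the shares without M48, and the mitochondrial reads without each lean animal.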

Additional observations from a re-analysis of the deposited data

Results flagged for a closer look

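Dixon's test was run on 88 sets of values, each from the 5 lean animals or the 10 multiple disease animals with lean. It compared the highest and the lowest animal with the rest, and chance marks about 1 in 20 independent sets. The 88 sets come from the same animals and are not independent. In 34 sets an animal was far from the others, and in all but 2 of them it was multiple disease animal M48. Its log2 ratio of reads in levels 1 to 5 over levels 6 to 10 was 0.62, and its summed reads over the windows called in lean animals were 2.29 (higher windows) and -2.20 (lower windows) on the log2 scale.

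Relative to the no disease median, the log2 share of M48 was 0.67 in level 1, 0.98 in level 2, 0.60 in level 3, 0.26 in level 4, -0.0322 in level 5, -0.30 in level 6, -0.55 in level 7, -0.80 in level 8, -1.02 in level 9 and -0.33 in level 10. By chromosome it was 0.0493 on 1, -0.55 on 2, 0.10 on 3, -0.21 on 4, 0.18 on 5, -0.10 on 6, 0.12 on 7, -0.17 on 9, 0.67 on 10, -0.32 on 11, 1.16 on 12, -0.20 on 13, -0.12 on 14, -0.40 on 15, -0.11 on 16, -0.12 on 17, -0.22 on 18, 0.47 on 19 and 0.61 on 20. M48 is 1 animal, with a median of 3 reads per window, and these values are not independent of each other.

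The other 2 were lean animal M66, with 0.305 RPM in the named window chr7:55962001-55963000 against 0.117 RPM or less in the other lean animals, and multiple disease animal M63, with a log2 share of -0.10 on the Y chromosome.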

How the results depend on the processing

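No paired analysis was possible because no animal was measured in more than 1 group. Against 966 windows and 959 DHRs with all animals, edgeR's exact test gave 2876 and 2854, DESeq2 1698 and 1690, a mean of at least 20 reads 525 and 525, the removal of animals tagged DMSO 1528 and 1499, all 19 no disease animals 1769 and 1761, the removal of M28 and M42 121 and 117, the removal of M22 4041 and 3818, and the ratio of levels as a covariate 231 and 226. Leaving out 1 lean animal gave between 326 (without M42) and 3782 (without M66) windows and between 320 and 3664 DHRs. The percentage of windows higher in lean, 42.96%, was 51.13% with offsets that follow abundance, 34.10% with a mean of at least 20 reads, 37.04% without tagged animals, 47.09% with 19 no disease animals, 18.18% without M28 and M42, 68.79% without M22 and 25.54% with the covariate, and between 8.78% (without M28) and 66.56% (without M42) with 1 lean animal left out. An adjusted p of 0.05 was passed by 716 windows in the exact test, 2 in DESeq2, 1 without a filter, 1 without tagged animals, 1841 without M22, and 0 to 676 with 1 lean animal left out (5 without M54, 676 without M66).

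Of 1 Mb bins, 2001 passed without tagged animals, 1744 without M22 and between 0 and 2096 (without M66) with 1 lean animal left out. Of the 11 level shares, 9 passed without tagged animals, 7 without M22 and 0 to 9 with 1 lean animal left out, and of the 22 chromosome shares 11 and 0 to 17. The log2 ratio of levels, 0.14, was 0.0846 for medians of animals, 0.0694 for levels from the 15 disease animals without lean, -0.0118 without M28 and M42, and 0.051 (without M28) to 0.19 (without M66) with 1 lean animal left out.

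Without M28 and M42 the log2 share differences turned over to -0.0196 in level 1, -0.0133 in level 2, -0.00574 in level 3, -0.00142 in level 4, 0.0046 in level 6, 0.00887 in level 7, 0.00901 in level 8 and 0.0135 in level 9. By chromosome they turned over to 0.00544 on 2, 0.00613 on 4, 0.000817 on 6, -0.00307 on 7, -0.00294 on 8, 0.0028 on 9, -0.00783 on 10, 0.00792 on 11, -0.00964 on 12, 0.000892 on 13, 0.000292 on 14, 0.00273 on 16, 0.00664 on 18, -0.0339 on 19 and -0.00779 on 20. Level 6 also turned over with levels from the 15 disease animals (0.00393), and with 1 lean animal left out it was between -0.0166 (without M66) and 0.00244 (without M28).

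For the multiple disease animals with lean, the 38 windows against no disease animals were 259 without M48 and 446 in the exact test, and the 34 against disease animals without lean were 265, 1002 and, without tagged animals, 55. The share of windows with the direction of the lean comparison was 30.9% (higher) and 36.13% (lower) without M48, against 50.0% of all windows for each. It was 85.23% and 52.19% without tagged animals, against 53.75% and 46.25% of all windows. The fit without tagged animals kept M48, 1 of its 6 multiple disease animals. The cause of these changes was not tested. Over the single results, 245 values of named windows stayed called and 21 did not, 110 values of named bins stayed above the adjusted p of 0.05 and 30 passed it, and 25 level and 28 chromosome differences passed it under an alternative. A window lower in lean had a median of 3 to 15 reads in a lean animal, so that depth limits the precision of such values.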
